A study of Mus musculus with 50 samples.

Results

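The integrated stress response and the unfolded protein response were followed here through 10 transcripts: Atf4, Ddit3, Trib3, Chac1, Asns, Sesn2, Xbp1, Ern1, Ppp1r15a and Herpud1. They were matched by gene symbol to the per-mouse count files, which list 53700 genes, and all 10 were found and were among the 16696 genes tested. The samples were microglia sorted from the hippocampus of 50 male C57BL/6J mice, 1 library per mouse. Early-life stress (ELS) was limited bedding and nesting material from postnatal day (P)2 to P9, and control (CTR) litters were not disturbed. The 12 P9-CTR and 13 P9-ELS mice were untreated at sampling. At P200, 7 CTR and 6 ELS mice had received PBS, and 7 CTR and 5 ELS mice had received the bacterial endotoxin LPS at 1 mg/kg, 3 h before isolation. Cells were sorted as CD11b-positive with intermediate CD45, and myelin was removed on Percoll at P200 but not at P9, so age and preparation cannot be told apart.

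In the integrated stress response, eIF2 kinases phosphorylate the translation initiation factor eIF2. Bulk protein synthesis then slows, while ATF4 is translated more and switches on genes for amino acid supply, redox balance and cell death. The unfolded protein response answers misfolded protein in the endoplasmic reticulum (ER) through the eIF2 kinase PERK, through IRE1 (encoded by Ern1), which splices Xbp1 mRNA, and through ATF6. Microglia, the resident macrophages of the brain, respond to LPS by making and secreting cytokines. ATF4 is set largely by translation and XBP1 by splicing, and neither step is visible in counts per gene.

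In the GRCm39 annotation, the members of the integrated stress response were Atf4 at chr15:80139372-80141745, Ddit3 at chr10:127124268-127132163, Trib3 at chr2:152179337-152191958, Chac1 at chr2:119180757-119184866, Asns at chr6:7671667-7728461, Sesn2 at chr4:132219335-132237815 and Ppp1r15a at chr7:45172340-45175692. Those of the unfolded protein response in the ER were Xbp1 at chr11:5470606-5483027, Ern1 at chr11:106283818-106378686 and Herpud1 at chr8:95113022-95123141. All 10 are protein-coding, and counts covered exons.

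Values are CPM, read counts divided by library size after TMM scaling. Libraries held 5152838 to 42231258 counted reads. The number of detected genes was under 16000 in 3 libraries, mice P9_19.2_ELS, P9_19.3_ELS and P200_1.1_CTR_PBS (12854 genes in the last), named as in the sample labels, and was 16485 or more in the other 47. All 8 microglia markers had counts in every group, with a summed level of 35700 to 81100 CPM. Monocyte and neutrophil markers summed to at most 11.6 CPM, and Ly6g was at 0 in all groups. Oligodendrocyte markers summed to 68.4 to 199 CPM and endothelial markers to 1.77 to 68.5 CPM. A call in the text is an adjusted p under 0.05 (edgeR quasi-likelihood test, Benjamini-Hochberg over all genes tested).

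The ATF4 binding letters could be looked for in front of each gene. The 300 bases upstream of the annotated start of the canonical transcript (GENCODE vM39, GRCm39) were searched on both strands for 4 motifs. These were TGATGNAA, the core of the C/EBP-ATF composite element bound by ATF4; TGACGTGG, bound by XBP1 and ATF6; the ER stress element, CCAAT and CCACG separated by 9 bases; and its second form, ATTGG and CCACG separated by 1 base. The composite element was found in 4 of 10 members, Ddit3, Chac1, Sesn2 and Herpud1, and in 4.06% of 21757 protein-coding promoters. The second ER stress element was found in Herpud1 alone of the 10, and in 0.0552% of promoters. TGACGTGG, in 136 of the 21757 promoters, and the first ER stress element, in 0.115% of them, were in none of the 10 windows. The 4 windows with a match are printed 5′ to 3′ on the strand of the gene, because these are the members in which the letters could be shown. Capitals mark the fixed letters of a match, which for the composite element was on the opposite strand each time.
Ddit3 (chr10:127126260-127126559, plus strand): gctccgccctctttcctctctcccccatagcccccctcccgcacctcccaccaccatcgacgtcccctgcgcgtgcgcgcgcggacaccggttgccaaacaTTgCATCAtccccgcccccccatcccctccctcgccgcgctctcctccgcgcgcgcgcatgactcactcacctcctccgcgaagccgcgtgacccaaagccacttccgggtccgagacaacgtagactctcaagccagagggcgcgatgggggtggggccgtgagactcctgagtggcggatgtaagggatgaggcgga
Chac1 (chr2:119181389-119181688, plus strand): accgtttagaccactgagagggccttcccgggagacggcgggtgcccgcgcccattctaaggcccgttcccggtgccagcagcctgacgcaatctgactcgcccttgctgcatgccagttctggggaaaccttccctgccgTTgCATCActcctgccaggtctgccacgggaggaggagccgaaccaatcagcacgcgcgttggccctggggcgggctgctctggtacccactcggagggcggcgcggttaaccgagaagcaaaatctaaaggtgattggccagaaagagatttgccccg
Sesn2 (chr4:132237816-132238115, minus strand): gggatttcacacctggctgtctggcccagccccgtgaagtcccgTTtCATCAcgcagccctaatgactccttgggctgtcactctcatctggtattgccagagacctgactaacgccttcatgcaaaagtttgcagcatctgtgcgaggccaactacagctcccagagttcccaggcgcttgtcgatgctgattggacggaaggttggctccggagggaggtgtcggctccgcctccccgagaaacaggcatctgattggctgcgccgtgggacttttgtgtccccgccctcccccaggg
Herpud1 (chr8:95112737-95113036, plus strand): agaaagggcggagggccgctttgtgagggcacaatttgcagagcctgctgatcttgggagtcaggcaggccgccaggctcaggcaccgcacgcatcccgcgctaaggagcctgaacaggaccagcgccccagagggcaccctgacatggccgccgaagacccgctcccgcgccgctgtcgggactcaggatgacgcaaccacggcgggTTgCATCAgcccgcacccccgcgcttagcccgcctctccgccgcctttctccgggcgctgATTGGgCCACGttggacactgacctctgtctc
The composite element began 199 bases upstream of the start in Ddit3, 159 in Chac1, 256 in Sesn2 and 92 in Herpud1, where the ER stress element began 32 bases upstream. A match describes the letters in 1 annotated window and no binding was measured.

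Levels differed widely between members. Per kilobase of annotated exon (the union of all exons of a gene), Herpud1 and Xbp1 were the most abundant members in all 6 groups. In P200-CTR-PBS, Herpud1, which encodes an ER membrane protein of the degradation machinery, was at 147 ± 15.4 and Xbp1 at 103 ± 29.6 CPM per kb (SD, n = 7). Their ranges overlapped in every group, so their order was not resolved. Atf4, the transcription factor of the integrated stress response, was the third at 19.29 ± 4.88 CPM per kb. Ppp1r15a, which encodes GADD34, the stress-induced subunit that directs dephosphorylation of eIF2, was the fourth at 7.96 ± 3.25. Ddit3 (2.25 ± 0.553), Ern1 (1.52 ± 0.391) and Sesn2 (1.39 ± 0.684) followed with overlapping ranges. Asns, Trib3 and Chac1 were lowest, at 0.135, 0.054 and 0.0175 CPM per kb. After LPS the order at the top was the same, and Chac1 in CTR mice reached 1.28 ± 0.561 CPM per kb. Exons used in few transcripts lengthen the union and lower these values.

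**Figure D1:**
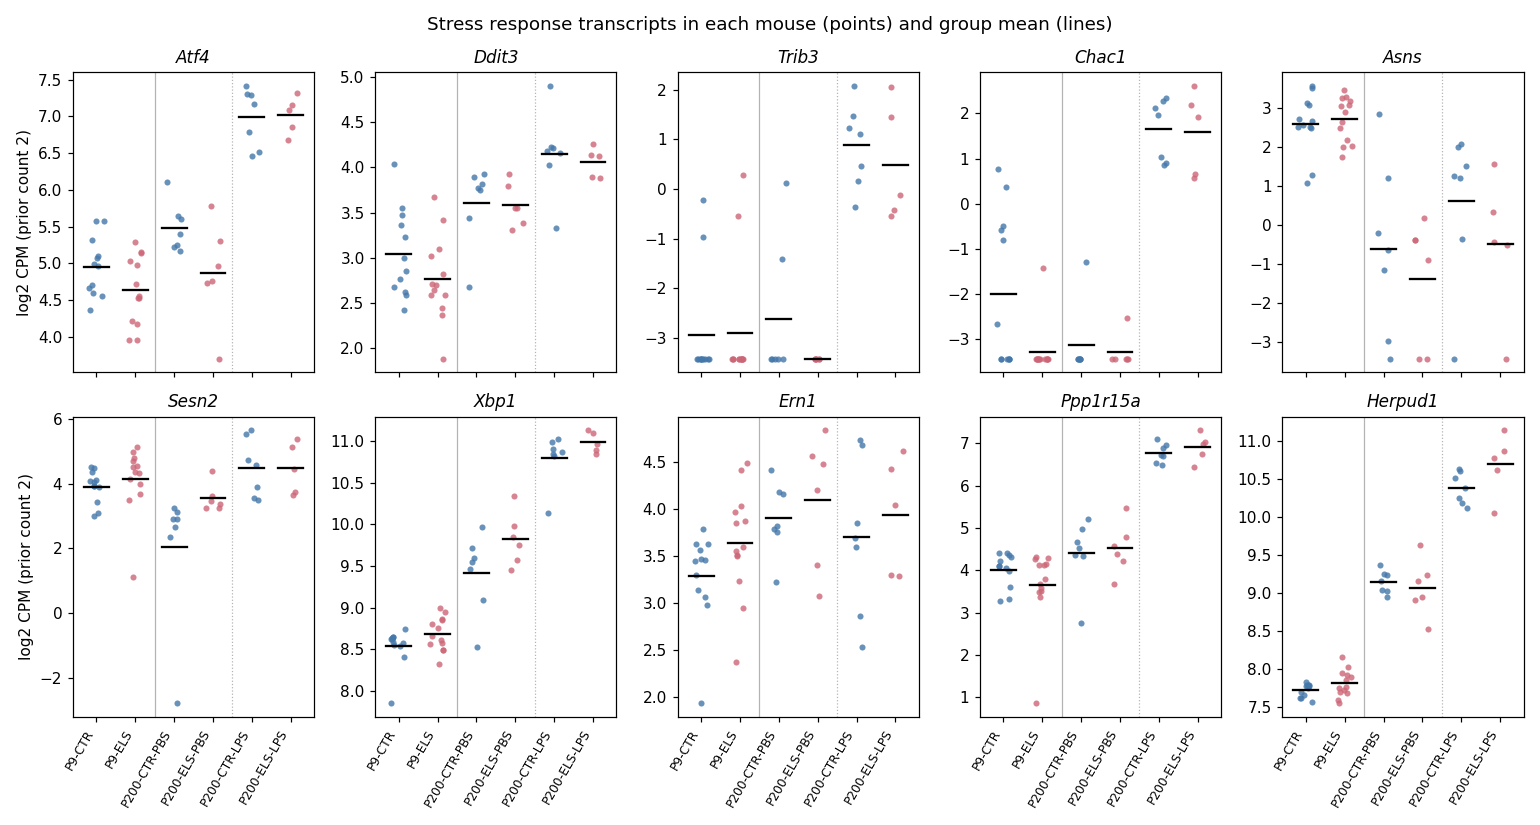
Each point is the log2 CPM (prior count 2) of 1 mouse and each line a group mean, with CTR in blue and ELS in red, for the 10 members over the 6 groups. The LPS mice lay above the PBS mice without overlap for Atf4, Chac1, Xbp1, Ppp1r15a and Herpud1 in both CTR and ELS.

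LPS at P200 raised most of the 10 transcripts. In CTR mice, 6 of 10 members rose and 0 fell, where 8.73% of all genes tested rose and 6.20% fell. In ELS mice, 6 of 10 rose and 0 fell, where 7.40% of all genes rose and 4.94% fell. Atf4, Chac1, Xbp1, Ppp1r15a and Herpud1 rose in both, Sesn2 was called in CTR and Trib3 in ELS. Trib3 passed the filter of 1 CPM in more than 2 libraries only through LPS mice, so the filter favoured its rise. With 1 CPM required in at least 25 mice, Trib3 and Chac1 were not tested. Of the 8 members then left, 5 rose in CTR and 4 in ELS. With that filter, 2131 of all genes were called in CTR and 1851 in ELS, in either direction. The shares above belong to the main filter. The median log2 fold change of the 10 was 1.43 in CTR and 1.40 in ELS (1.40 also with the bound for Trib3), beside 0.00468 and -0.0352 over all genes tested. In RNA from sorted cells in bulk, a change in the share of cells that express a gene and a change in RNA per cell cannot be told apart.

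Atf4 rose 2.87-fold in CTR and 4.09-fold in ELS mice. In CTR-PBS mice it ranged from 36.0 to 68.9 CPM with a median of 41.9, and in CTR-LPS mice from 87.7 to 171 CPM with a median of 144. In ELS-PBS mice it ranged from 12.9 to 54.6 CPM with a median of 29.0. The 5 ELS-LPS mice were at 102, 115, 136, 142 and 159 CPM. The LPS and PBS mice did not overlap in either condition. The log2 fold change was 1.52 (SE 0.23, adjusted p = 1.38e-06, edgeR) in CTR and 2.03 (SE 0.26, adjusted p = 3.68e-08) in ELS.

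Chac1 had the largest difference of the members in CTR mice. It encodes an enzyme that degrades glutathione and is a known target of ATF4. It was at 0 reads in 6 of 7 CTR-PBS mice and in 5 of 6 ELS-PBS mice, with 0.318 and 0.0804 CPM in the remaining mice. All 12 LPS mice expressed it, at 1.71 to 5.00 CPM in CTR (median 3.80) and at 1.40, 1.48, 3.69, 4.48 and 6.04 CPM in ELS. PBS mice were thus at or near 0 and LPS mice were not. The CTR group held 511 reads after LPS and 8 after PBS, a ratio of 67.6 after scaling (95% exact interval 34.1 to 158), with an adjusted p of 0.000359 (edgeR). The ELS group held 270 reads after LPS and 2 after PBS, a ratio of 252 (95% exact interval 69.0 to 2090), with an adjusted p of 0.00022. The intervals cover counting error only.

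Trib3, the pseudokinase that ATF4 and CHOP induce and that dampens their activity, was as scarce. It was detected in 2 of 7 CTR-PBS mice, at 0.284 and 0.998 CPM, and in 0 of 6 ELS-PBS mice. All 12 LPS mice had reads, from 0.681 to 4.15 CPM in CTR (median 2.07) and 0.59, 0.65, 0.819, 2.66 and 4.06 CPM in ELS. mouse P200_15.1_CTR_PBS, at 0.998 CPM, was inside the range of the LPS mice. The CTR difference missed the threshold, with a log2 fold change of 3.53 (SE 1.42, adjusted p = 0.0891, edgeR), and passed it without mouse P200_15.1_CTR_PBS (5.54, adjusted p = 0.0174). In ELS the difference was called (adjusted p = 0.00371, edgeR). The mean after LPS, 1.76 CPM (SD 1.55, n = 5), was 86.2-fold the floor of 3 reads over the ELS-PBS group. That fold leaves out the spread between the LPS mice, whose median was 0.819 CPM.

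Ppp1r15a rose 4.73-fold in CTR and 4.95-fold in ELS mice. CTR-PBS mice ranged from 6.62 to 36.8 CPM (median 22.9) and CTR-LPS mice from 89.5 to 138 CPM (median 107). ELS-PBS mice ranged from 12.7 to 44.4 CPM (median 22.4), and the 5 ELS-LPS mice were at 87.5, 107, 127, 131 and 159 CPM. No LPS mouse was as low as any PBS mouse of its condition. The log2 fold change was 2.24 (SE 0.30, adjusted p = 5.46e-08, edgeR) in CTR and 2.31 (SE 0.33, adjusted p = 4.25e-07) in ELS.

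Xbp1 and Herpud1, the most abundant members, had smaller fitted log2 fold changes than Atf4 and Ppp1r15a, and differences between genes were not tested. In CTR the values of Atf4 (1.52, SE 0.23) and Xbp1 were close. Xbp1 went from 368 to 1005 CPM in CTR-PBS (median 747) to 1122 to 2079 CPM in CTR-LPS (median 1866), a log2 fold change of 1.35 (SE 0.15, adjusted p = 4.56e-10, edgeR). In ELS it was at 700.3 to 1301 CPM after PBS (median 890.2) and at 1836, 1902, 2003, 2190.5 and 2246 CPM after LPS (log2 fold change 1.14, SE 0.17, adjusted p = 6.53e-07). Mouse P200_5.3_CTR_LPS, at 1122 CPM, was the lowest of the LPS mice and the others were at 1813 CPM or more. Herpud1 went from 495 to 665 CPM in CTR-PBS (median 574) to 1114 to 1587 CPM in CTR-LPS (median 1343), a log2 fold change of 1.24 (SE 0.12, adjusted p = 2.38e-11). In ELS it was at 370.1 to 797 CPM after PBS (median 531) and at 1063, 1582, 1768, 1869 and 2271 CPM after LPS (log2 fold change 1.63, SE 0.14, adjusted p = 2.34e-13). LPS and PBS mice of each condition were apart for both genes.

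Sesn2, a stress-induced inhibitor of mTORC1 signalling, rose 4.21-fold in CTR mice (log2 fold change 2.07, SE 0.45, adjusted p = 0.000506, edgeR). CTR-PBS mice ranged from 0.0509 to 9.36 CPM (median 7.35) and CTR-LPS mice from 11.19 to 50.5 CPM (median 23.7). The lowest value was that of library P200_1.1_CTR_PBS, without which the log2 fold change was 1.85 (adjusted p = 0.000281). In ELS the groups overlapped, at 9.33 to 20.8 CPM after PBS (median 10.6) and 12.4, 13.5, 21.9, 35.3 and 42.1 CPM after LPS, and the log2 fold change of 1.04 (SE 0.48, adjusted p = 0.168) was not called. Without the 3 libraries with under 16000 genes, the ELS difference was called at the same size (1.04, adjusted p = 0.0191). The difference between the conditions was tested and is given with the interactions.

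Ddit3, Asns and Ern1 did not pass the test after LPS in either condition. Ddit3 encodes CHOP, the transcription factor linked to death under prolonged ER stress. It was at a median of 13.6 CPM in CTR-PBS and 18.12 CPM in CTR-LPS, with overlapping ranges and a log2 fold change of 0.55 (SE 0.24, adjusted p = 0.118, edgeR). In ELS the value was 0.47 (SE 0.27, adjusted p = 0.286). Reads in the bases that Ddit3 shares with a second gene of the same name may not have been counted. Asns, the asparagine synthetase, stayed at 4.11 CPM or less in all LPS mice, with log2 fold changes of 0.54 (SE 0.73) in CTR and 1.17 (SE 0.87) in ELS. mouse P200_1.1_CTR_PBS was at 7.12 CPM of Asns and the other CTR-PBS mice at 2.21 CPM or less, and without it the CTR difference was 1.86 (adjusted p = 0.0861). Ern1, the sensor that splices Xbp1, had log2 fold changes of -0.04 (SE 0.30) in CTR and -0.19 (SE 0.35) in ELS. Its LPS mice, at 5.66 to 26.5 CPM in CTR, spanned the CTR-PBS range of 9.203 to 21.2 CPM.

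**Figure D2:**
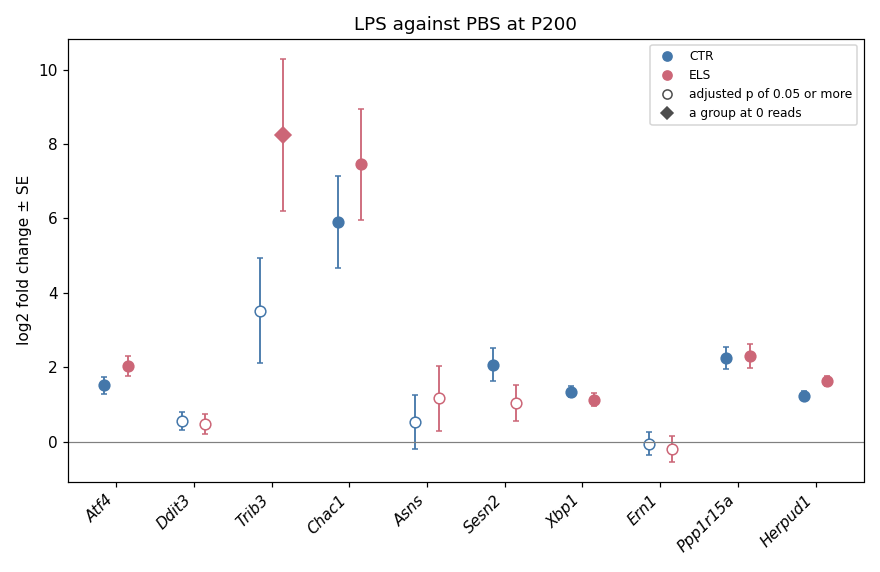
Points are log2 fold changes of LPS against PBS at P200 with their SE, for CTR (blue, 7 against 7 mice) and ELS (red, 5 against 6). Filled points passed the adjusted p of 0.05, and the diamond marks Trib3 in ELS, whose PBS group had 0 reads, so its height depends on the prior count.

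Other genes of the pathways moved unevenly after LPS. These lists hold genes other than the 10 members. Of 33 tested ATF4 targets, 12 rose and 0 fell in CTR, with a median log2 fold change of 0.57 over the list. In ELS, 10 rose and 1 fell, with a median of 0.37. The shares called in either direction, 36.4% in CTR and 33.3% in ELS, stand beside 14.9% and 12.3% of all genes tested. In CTR the smallest adjusted p belonged to Eif4ebp1, a translation repressor (log2 fold change 0.96, adjusted p = 2.99e-07), Slc7a1, a transporter of arginine and lysine (3.06, 1.96e-06), Nupr1, a stress-induced chromatin protein (1.83, 1.37e-05), and Slc38a2, a transporter of neutral amino acids (1.33, 1.64e-05). In ELS they belonged to Eif4ebp1 (1.16, adjusted p = 7.16e-08), Mthfd2, a mitochondrial folate enzyme (1.47, 1.32e-06), Nupr1 (2.11, 1.04e-05) and Slc7a11, the cystine transporter (3.71, 6.82e-05). Ddit4, an inhibitor of mTORC1, rose in CTR (1.81, SE 0.54, adjusted p = 0.0161) and was not called in ELS (-1.51, SE 0.61, adjusted p = 0.1). In fits added after the values per mouse were seen, the CTR call was lost without mouse P200_8.3_CTR_LPS (1.52, adjusted p = 0.0553). ELS-PBS mice ran from 5.71 to 388 CPM, and without the highest, P200_4.1_ELS_PBS, the ELS value was -0.00417 (adjusted p = 1). Without mouse P200_17.1_ELS_PBS or P200_17.2_ELS_PBS, it was called (-1.76, adjusted p = 0.0405, and -1.75, adjusted p = 0.0468). Atf3, a stress-induced transcription factor, was not called in CTR (-0.74, adjusted p = 0.0651) or ELS (0.09, adjusted p = 0.913).

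Among 14 eIF2 kinases and subunits of the eIF2 machinery, 4 rose and 1 fell in CTR, and 4 rose and 0 fell in ELS. These are 35.7% and 28.6% of the list, beside 14.9% and 12.3% of all genes tested called in either direction. Ppp1r15b, the constitutive partner of the eIF2 phosphatase, rose in CTR (1.54, SE 0.25, adjusted p = 4.4e-06, edgeR) and in ELS (1.43, SE 0.28, adjusted p = 0.000152). Eif2s2, the beta subunit of eIF2, rose by 1.06 in CTR and 0.82 in ELS on the log2 scale. Eif2s1, the alpha subunit that is phosphorylated, rose by 0.62 in CTR and 0.61 in ELS, and Eif2b4, a subunit of the exchange factor, rose by 0.51 in CTR and 0.48 in ELS. Eif2ak3, which encodes PERK, fell by 1.102 on the log2 scale in CTR (SE 0.24, adjusted p = 0.000581), from 10.7 to 19.0 CPM after PBS to 2.43 to 9.32 CPM after LPS. Its direction was thus opposite to that of Atf4, Ppp1r15a and Herpud1 in the same mice, and in ELS the value was -0.67 (SE 0.27, adjusted p = 0.0999).

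Of 29 ER chaperones, folding enzymes and degradation factors, 3 rose and 1 fell in CTR and 2 rose and 1 fell in ELS, with list medians of -0.0465 and 0.0193. Hspa5, the main ER chaperone BiP, rose by 0.48 in CTR (adjusted p = 0.0139, edgeR) and 0.62 in ELS (adjusted p = 0.00545) on the log2 scale. Atf6, the ER stress sensor, rose by 0.68 in CTR and 0.69 in ELS, and Ero1a, an oxidase of the ER, rose by 0.66 in CTR. Edem1, which sorts misfolded glycoproteins for degradation and is a known XBP1 target, fell by 0.64 in CTR mice (adjusted p = 0.00459) and by 0.87 after LPS in ELS mice (adjusted p = 0.000886). The shares called in this list, 13.8% and 10.3%, were close to the shares of all genes called in either direction, 14.9% and 12.3%.

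Immediate early and dissociation-response genes moved with LPS. The 12 listed genes summed to 814 to 1080 CPM in PBS mice and to 8590 to 15700 CPM in LPS mice, with Fosb at 0 in every group except CTR-PBS. Astrocyte markers summed to 299 to 503 CPM in CTR-PBS and 483 to 613 CPM in CTR-LPS mice, and to 314 to 454 and 418 to 584 CPM in the ELS groups. The part of either in the LPS differences was not tested.

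**Figure D3:**
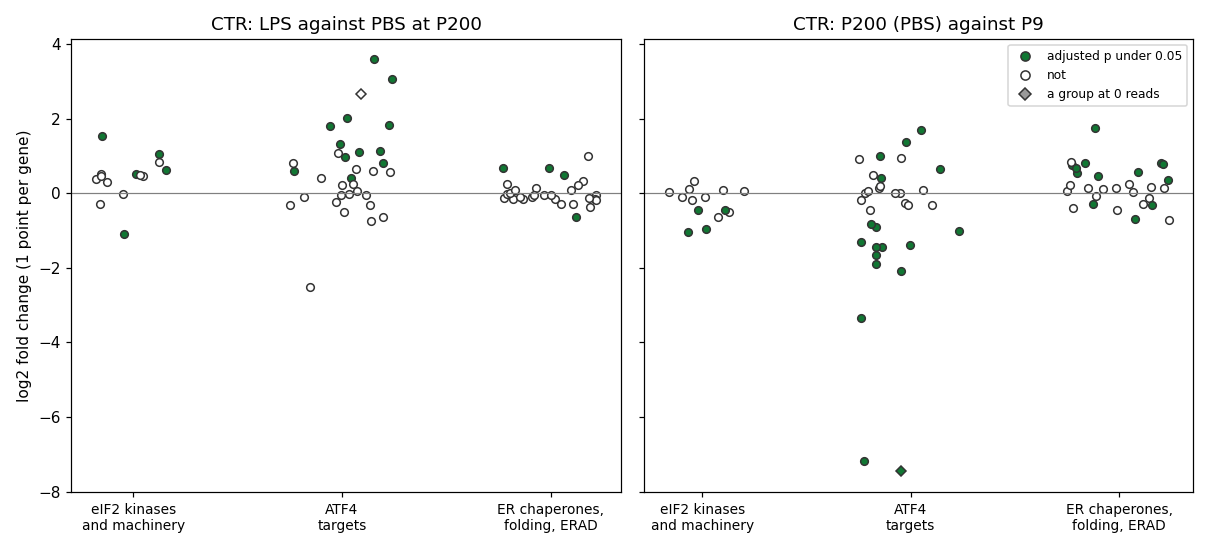
Each point is the log2 fold change of 1 gene of the lists of eIF2 kinases and machinery (14 genes), ATF4 targets (33) and ER chaperones, folding and degradation (29) in CTR mice, after LPS at left and from P9 to P200 at right. Filled points passed the adjusted p of 0.05 and diamonds had a group at 0 reads. After LPS the called ATF4 targets lie above 0, and between the ages 13 of 18 called ones lie below it.

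Between P9 and P200 the members split into a group that was higher and a group that was lower. In CTR mice, 7 of 10 were called, where 44.1% of all genes tested were. Of the 7, 4 were higher at P200 and 3 lower, beside 2911 and 4445 of the 16696 genes. In ELS mice, 6 of 10 were called, where 42.2% of all genes were. Of the 6, 4 were higher and 2 lower, beside 2863 and 4182 of all genes. The P200 mice are the PBS groups, which are also the reference of the LPS comparisons. Herpud1, Xbp1 and Ddit3 were higher at P200 in both conditions, and Asns was lower in both.

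Herpud1 was 2.71-fold higher at P200 in CTR mice, and the ages did not overlap. P9-CTR mice ranged from 189 to 226 CPM (median 216) and P200-CTR-PBS mice from 495 to 665 CPM (log2 fold change 1.44, SE 0.11, adjusted p = 4.44e-16, edgeR). In ELS, P9 mice ranged from 187 to 285 CPM (median 217) and P200 mice from 370.1 to 797 CPM (1.29, SE 0.11, adjusted p = 3.75e-14). Xbp1 was 1.90-fold higher in CTR, from a median of 389 CPM at P9 to 747 CPM (log2 fold change 0.93, SE 0.13, adjusted p = 4.41e-08). In ELS it was 2.23-fold higher, from a median of 403 CPM, and the ages did not overlap (1.16, SE 0.13, adjusted p = 2.65e-10).

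Ddit3, Atf4 and Ppp1r15a differed less between the ages. Ddit3 went from a median of 7.49 CPM at P9-CTR to 13.6 CPM (log2 fold change 0.54, SE 0.21, adjusted p = 0.0335, edgeR) and from 6.38 CPM at P9-ELS to 11.6 CPM (0.77, SE 0.22, adjusted p = 0.00313). Atf4 was called in CTR (0.51, SE 0.20, adjusted p = 0.033) and not in ELS (0.31, SE 0.21, adjusted p = 0.245). Without library P200_1.1_CTR_PBS the CTR value of Atf4 was 0.39 and was not called (adjusted p = 0.127), and the call was also lost without mouse P9_51.1_CTR or P9_51.2_CTR or mouse P200_8.1_CTR_PBS or P200_18.2_CTR_PBS (0.48 to 0.50). The Ddit3 call in CTR was lost without mouse P9_51.2_CTR or P9_51.3_CTR or mouse P200_5.1_CTR_PBS, P200_8.1_CTR_PBS, P200_15.1_CTR_PBS, P200_18.1_CTR_PBS or P200_18.2_CTR_PBS, with values of 0.49 to 0.52. Ppp1r15a was called in ELS (0.81, SE 0.26, adjusted p = 0.00899) and not in CTR (0.49, SE 0.25, adjusted p = 0.111). Without mouse P200_17.2_ELS_PBS the ELS value of Ppp1r15a was 0.59 (adjusted p = 0.0747), and without library P200_1.1_CTR_PBS the CTR value was 0.65 and was called (adjusted p = 0.0245). Ern1 was not called in CTR (0.61, SE 0.27, adjusted p = 0.0601) or in ELS (0.49, SE 0.28, adjusted p = 0.152), and was called in CTR without mouse P9_15.2_CTR or P9_17.2_CTR or mouse P200_18.1_CTR_PBS (adjusted p = 0.0379 to 0.0499).

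Asns was lower at P200 in both conditions. P9-CTR mice ranged from 2.01 to 11.8 CPM (median 6.01) and P200-CTR-PBS mice from 0 to 7.12 CPM (median 0.545). The log2 fold change was -2.08 (SE 0.70, adjusted p = 0.0135, edgeR), and -3.40 (adjusted p = 0.00019) without library P200_1.1_CTR_PBS. With counts summed per nest and group, the CTR call was lost (-1.635, adjusted p = 0.2). P9-ELS mice ranged from 3.27 to 11.0 CPM (median 7.35) and P200-ELS-PBS mice from 0 to 1.03 CPM (median 0.557), with no overlap (-3.88, SE 0.84, adjusted p = 0.000163). Sesn2 was lower in CTR, from a median of 15.9 CPM to 7.35 CPM (-1.32, SE 0.40, adjusted p = 0.00652), and was not called in ELS (-0.75, SE 0.41, adjusted p = 0.137). Without the 3 libraries with under 16000 genes, Sesn2 was called in ELS too (-0.78, adjusted p = 0.0214).

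Chac1 and Trib3 rested on few mice at both ages, and Trib3 in CTR (0.63, SE 1.21) and Chac1 in ELS (-0.37, SE 1.34) were not called. Chac1 was detected in 6 of 12 P9-CTR mice, up to 1.61 CPM, and in 1 of 7 P200-CTR-PBS mice (log2 fold change -2.78, SE 1.07, adjusted p = 0.0311, edgeR). That call was lost without mouse P9_51.3_CTR or P9_52.2_CTR or mouse P200_1.1_CTR_PBS, P200_5.2_CTR_PBS, P200_8.1_CTR_PBS, P200_15.1_CTR_PBS, P200_18.1_CTR_PBS or P200_18.2_CTR_PBS, with values of -2.62 to -2.27. Trib3 was detected in 2 of 13 P9-ELS mice and in 0 of 6 P200-ELS-PBS mice, and was called lower at P200 (adjusted p = 0.0308, edgeR). The P9-ELS mean of 0.133 CPM (SD 0.342) was 6.5-fold the floor of 3 reads over the P200-ELS-PBS group. That fold leaves out the spread between mice. That call was lost without mouse P9_55.3_ELS or mouse P200_2.1_ELS_PBS, P200_4.1_ELS_PBS or P200_17.1_ELS_PBS.

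**Figure D4:**
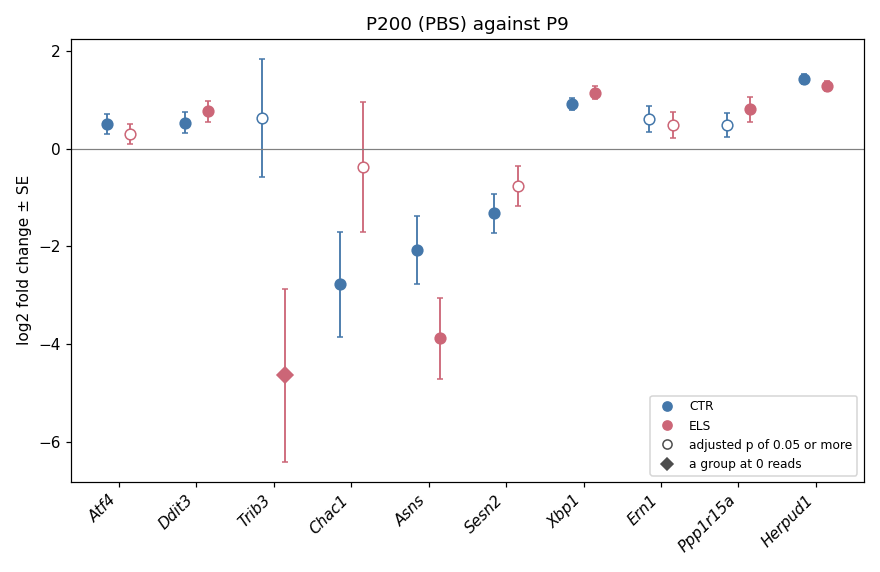
Points are log2 fold changes of P200 (PBS) against P9 with their SE, for CTR (blue, 7 against 12 mice) and ELS (red, 6 against 13). Herpud1 and Xbp1 were higher at P200 and Asns was lower in both conditions. The diamond marks Trib3 in ELS, with 0 reads at P200.

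The other pathway lists were counted between the ages as well. Of 33 ATF4 targets, 5 were higher and 13 lower at P200 in CTR, and 3 were higher and 12 lower in ELS. The shares called, 54.5% in CTR and 45.5% in ELS, stand beside 44.1% and 42.2% of all genes, more of which were lower than higher. Psat1 and Phgdh, enzymes of serine synthesis, had log2 fold changes of -1.90 (adjusted p = 3.31e-13, edgeR) and -1.40 (adjusted p = 4.35e-08) in CTR. In ELS these were -2.04 (adjusted p = 2.56e-13) and -1.51 (adjusted p = 2.83e-08). Psat1 went from 81.7 to 170 CPM in P9-CTR mice to 24.1 to 44.3 CPM in P200-CTR-PBS mice. Slc1a5, a transporter of neutral amino acids, was lower too, with values of -3.35 in CTR and -2.70 in ELS. Atf3 was higher by 1.70 in CTR (SE 0.24, adjusted p = 7.83e-08), and in ELS by 1.05 (SE 0.25, adjusted p = 0.000497), and Ddit4 was higher in ELS (4.07, adjusted p = 6.76e-10) and not called in CTR (0.48, adjusted p = 0.433). The ELS value was 2.56 (adjusted p = 1.23e-06) without mouse P200_4.1_ELS_PBS, which was at 388 CPM.

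Of 29 ER chaperones, folding and degradation genes, 10 were higher and 3 lower at P200 in CTR, and 9 were higher and 4 lower in ELS. The share called was 44.8% in each condition, close to the 44.1% and 42.2% of all genes. The smallest adjusted p in CTR belonged to Dnajb9, a co-chaperone of BiP and an XBP1 target (log2 fold change 1.74, adjusted p = 1.85e-13, edgeR), Derl1, a channel component of ER degradation (0.68, 1.4e-06), Hspa5 (0.76, 1.63e-06) and Pdia6, a disulfide isomerase (0.47, 2.57e-06). In ELS they belonged to Dnajb9 (1.27, adjusted p = 3.04e-09), Ero1b, an ER oxidase (0.88, 3.61e-06), Derl1 (0.56, 6.5e-05) and Hspa5 (0.62, 0.000102). Dnajb9 went from 77.5 to 128 CPM in P9-CTR mice to 286 to 458 CPM in P200-CTR-PBS mice, without overlap. Of 14 eIF2 genes, 0 were higher and 4 lower in CTR, and 0 were higher and 5 lower in ELS, or 28.6% and 35.7% of the list. Eif2ak2, the kinase PKR, was lower, with a value of -0.97 for CTR mice (adjusted p = 0.000616) and of -0.87 for ELS mice (adjusted p = 0.00293).

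Other markers moved with age as well. Border-associated macrophage markers, a list of 6 genes, summed to 470.0 to 918 CPM at P9 and to at most 9.62 CPM at P200. Neuronal markers summed to 40.2 to 197 CPM at P9 and to at most 11.9 CPM in the P200 PBS groups. Astrocyte markers summed to 86.0 to 332 CPM at P9 and 299 to 503 CPM in the P200 PBS groups. The immediate early list summed to 72.6 to 571 CPM at P9 and 814 to 1080 CPM in the P200 PBS groups. Their part in the age differences was not tested.

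ELS itself was not accompanied by a called difference in any of the 10 members. At P9, 0 of 10 were called, where 0% of all genes were, and DESeq2 also called 0 of the 10 at an adjusted p under 0.05. At an unadjusted p under 0.05, edgeR gave 1 of 10 members and 914 of the 16696 genes. The member was Chac1, detected in 6 of 12 P9-CTR mice with up to 1.61 CPM and in 1 of 13 P9-ELS mice at 0.279 CPM (log2 fold change -3.91, SE 0.94, p = 0.000115 by edgeR, adjusted p = 0.382). The groups overlapped at 0. The other 9 members, Atf4, Ddit3, Trib3, Asns, Sesn2, Xbp1, Ern1, Ppp1r15a and Herpud1, had log2 fold changes between -0.31 (Atf4) and 0.39 (Ern1).

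In PBS-injected adults, 0 of 10 members were called, where 0.168% of all genes were. DESeq2 also called 0 members at an adjusted p under 0.05. At an unadjusted p under 0.05, edgeR gave 5 of 10 members and 1622 of the 16696 genes. Atf4 was at 12.9 to 54.6 CPM in ELS-PBS and 36.0 to 68.9 CPM in CTR-PBS mice (log2 fold change -0.52, SE 0.24, adjusted p = 0.444, edgeR). Xbp1 had a value of 0.38 (SE 0.15, adjusted p = 0.34) and Sesn2 of 0.95 (SE 0.45, adjusted p = 0.474). Asns had -1.74 (SE 0.81, adjusted p = 0.457), which was -0.41 without library P200_1.1_CTR_PBS, and Trib3 was at 0 reads in all ELS-PBS mice and in 5 of 7 CTR-PBS mice (adjusted p = 0.291). Ddit3, Ern1, Ppp1r15a and Herpud1 had log2 fold changes between -0.06 and 0.27, and Chac1 had -1.51 (SE 1.35). All 10 ranges overlapped.

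Among the other pathway lists, Ddit4 was the only gene called between ELS-PBS and CTR-PBS. CTR-PBS mice were at 5.56 to 18.0 CPM (median 7.14) and ELS-PBS mice at 5.71, 7.24, 19.23, 31.3, 97.3 and 388 CPM. The log2 fold change was 3.39 (SE 0.58, adjusted p = 0.00685, edgeR). In fits added after the values per mouse were seen, it was 1.88 and not called (adjusted p = 0.104) without mouse P200_4.1_ELS_PBS, which held the highest value. With only the groups compared, 0 of all genes were called, so Ddit4 was not called there either. Atf3 was not called (-0.67, adjusted p = 0.4).

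After LPS, 0 of 10 members were called between ELS and CTR, where 0% of all genes were, and DESeq2 also called 0 of the 10 at an adjusted p under 0.05. At an unadjusted p under 0.05, edgeR gave 1 of 10 members and 798 of the 16696 genes. Herpud1 had the smallest p, with a log2 fold change of 0.34 (SE 0.13, p = 0.0138, adjusted p = 0.862, edgeR) and overlapping ranges of 1063 to 2271 CPM in ELS-LPS and 1114 to 1587 CPM in CTR-LPS. Atf4, Chac1 and Ppp1r15a had values of -0.01 (SE 0.25), 0.04 (SE 1.05) and 0.15 (SE 0.31). Asns had -1.11 (SE 0.84), and Ddit3, Trib3, Sesn2, Xbp1 and Ern1 lay between -0.19 (Trib3) and 0.17 (Xbp1).

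Whether ELS altered the LPS response was tested as an interaction. It called 0 of 10 members, where 0% of all genes were called, and DESeq2 also called 0 of the 10 at an adjusted p under 0.05. At an unadjusted p under 0.05, edgeR gave 2 of 10 members and 980 of the 16696 genes. The members were Trib3, whose fitted value depends on the prior count (p = 0.0324, adjusted p = 0.787), and Herpud1, with a difference of log2 fold changes of 0.39 (SE 0.19, p = 0.0402, adjusted p = 0.806). For Sesn2, called in CTR alone, the difference was -1.03 (SE 0.65, adjusted p = 0.906), and for Atf4 it was 0.51 (SE 0.34, adjusted p = 0.916). Chac1 had 1.54 (SE 1.62) and Asns 0.63 (SE 1.13), and Ddit3, Xbp1, Ern1 and Ppp1r15a lay between -0.21 (Xbp1) and 0.06 (Ppp1r15a).

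Whether ELS altered the change with age was tested in the same way. It called 0 of 10 members, where 0.0299% of all genes were called, and DESeq2 also called 0 of the 10 at an adjusted p under 0.05. At an unadjusted p under 0.05, edgeR gave 1 of 10 members (Trib3, p = 0.0143) and 1712 of the 16696 genes. For Asns the difference was -1.81 (SE 0.96, adjusted p = 0.518), and -0.48 without library P200_1.1_CTR_PBS. Chac1 had 2.41, Sesn2 0.56 (SE 0.55), and Atf4, Ddit3, Xbp1, Ern1, Ppp1r15a and Herpud1 lay between -0.21 (Atf4) and 0.32 (Ppp1r15a). Ddit4 was called (3.60, SE 0.69, adjusted p = 0.0324, edgeR), and was not called without mouse P200_4.1_ELS_PBS (2.08, adjusted p = 0.301). The call was also lost without mouse P200_1.1_CTR_PBS, P200_5.1_CTR_PBS, P200_8.1_CTR_PBS, P200_15.1_CTR_PBS or P200_18.2_CTR_PBS (3.51 to 3.64) or without the 3 libraries with under 16000 genes (3.47, adjusted p = 0.0824). With 1 CPM required in at least 25 mice, with only the groups compared or with counts summed per nest and group, 0 of all genes were called.

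Within groups, members varied together only in part. Over 50 mice, deviations from the group means of log2 CPM gave 45 pairs of members, described without a test because all genes of a library share its depth. The highest Pearson r was 0.578 for Sesn2 and Ppp1r15a, and it was -0.14 over the 47 mice without the libraries with under 16000 genes. Xbp1 and Herpud1 were at 0.424 and 0.478, and Atf4 and Ddit3 at 0.349 and 0.592. Of all genes tested, Ppan (r = 0.721) and Siglech (0.676) were most like Atf4, Gadd45g (0.714) and Bptf (0.705) most like Ddit3, and Ndfip1 (0.779) and Rcn2 (0.737) most like Xbp1. Cd83 (0.635) and Ctdnep1 (0.623) were most like Herpud1, and Tob2 (0.728) and Dgkd (0.706) most like Ern1. For Asns these were H1f4 (0.642) and E130317F20Rik (0.628), for Trib3 Paqr9 (0.552) and Eda2r (0.48), and for Chac1 Tdo2 (0.543) and Adora2a (0.494). For Sesn2, Mapk7 (0.918) and Ppm1f (0.917) were nearest, with r of 0.656 and 0.678 over 47 mice. For Ppp1r15a, Arrdc1 (0.799) and Prr14 (0.79) were nearest, with 0.314 and 0.343 over 47 mice.

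Some counts are uncertain because genes overlap. A second gene also named Ddit3 lies within the Ddit3 locus, had 0 reads in all 50 mice, and shares 2925 bases with it, so reads in shared exons may not have been counted. On the same strand, the Ddit3 gene also shares 1355 bases with Gm20492 and 505 with Gm66222, and the Sesn2 gene shares 6089 bases with Gm12981. Xbp1 lies within Ccdc117 on the opposite strand and Ddit3 overlaps Mars1 on the opposite strand. Whether the counting used strand is not given in the sources used here.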

How the data were processed

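RNA from sorted hippocampal microglia of 50 mice was sequenced, 1 library per mouse. The deposited values are raw counts per gene, which the authors made by trimming (cutadapt 2.10), alignment and counting (HTSeq 0.11.0) on GRCm39, per the submitters' processing notes. The groups were taken from the sample labels. CPM used library sizes scaled by TMM factors. The 16696 of 53700 genes that reached 1 CPM in more than 2 libraries were kept and fitted over all 6 groups with edgeR 4.0.16 in R 4.3.3 (quasi-likelihood F-test, Benjamini-Hochberg over all genes tested, adjusted p under 0.05, no covariate). Interactions were contrasts of the same fit. The alternatives were DESeq2 1.42.0, its size factors, the likelihood-ratio and robust tests, other filters, a log2 fold change limit of 1, fits of the groups compared alone, fits without single mice or without libraries with under 16000 detected genes, and use of the nest number as a block or to sum counts. Scripts were tested on counts simulated with known changes in CTR-LPS against CTR-PBS. Of 100 genes with a true log2 fold change of 1 in either direction, 30 were recovered. Of 100 genes with a change of 2, 72 were recovered. No other gene of the 16696 was changed, whereas 2493 were called in the real comparison. The adjusted p depends on how many genes differ, so recovery in the data may not equal these shares. A gene that was not called may still differ. Floors were 3 reads over a group. The p-values measure the spread between mice, some of which may share a nest. Whole litters, not single pups, were assigned to CTR or ELS at P2. Read as nests, the labels give 5 nests for P9-CTR, 4 for P9-ELS and 5 for each P200 group. The main p-values treat mice of a nest as independent. This bears on the ELS comparisons and on the age comparisons, in both of which the nests differ between the groups. Summing counts per nest and group changed calls with age and left the ELS comparisons at 0 members.

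The members and the gene lists were chosen with earlier results of these data known. All 10 members are named in every comparison tested, together with up to 4 genes per list with the smallest adjusted p, Ddit4 and Atf3, and the 2 genes most correlated with each member. Promoter sequences came from the GRCm39 genome with GENCODE vM39 starts.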

Additional observations from a re-analysis of the deposited data

Results flagged for a closer look

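In groups of 4 to 10 mice, 1 mouse stood apart from the others in 7 of 39 tests of a member within a group by Dixon's test. The chance rate of about 5 percent holds for normally distributed values and does not apply to groups mostly at 0. Where all other mice are at 0, as for Chac1, any mouse with reads is flagged. The number flagged is therefore not read as an excess over chance. Atf4 was at 68.9 CPM in mouse P200_1.1_CTR_PBS and at most 49.9 in the others. Asns was at 7.12 CPM in the same mouse, a library with 12854 detected genes, and at most 2.21 in the others. Trib3 was at 0.998 CPM in mouse P200_15.1_CTR_PBS and at most 0.284 in the others. Chac1 was at 0.318 CPM in mouse P200_5.1_CTR_PBS and at 0.0804 CPM in mouse P200_17.1_ELS_PBS, with all others of those groups at 0. Sesn2 was at 20.8 CPM in mouse P200_11.1_ELS_PBS and at most 12.2 in the others. Xbp1 was at 1122 CPM in mouse P200_5.3_CTR_LPS, below the others at 1813 or more.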

How the results depend on the processing

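The number of members called after LPS was 6 in CTR and 6 in ELS, where 2493 and 2059 of all genes tested were called. It stayed between 6 and 7 in CTR and at 6 in ELS when single mice were left out. With only the groups compared it was 7 in each condition, where 2317 of all genes were called in CTR and 2313 in ELS. Without the libraries with under 16000 genes it was 7 in ELS, where 3532 of all genes were called. With 1 CPM required in at least 25 mice it was 5 of 8 in CTR and 4 of 8 in ELS, where 2131 and 1851 of all genes were called. With age in CTR it was 7, where 7356 of all genes were called. It fell to 4 with a log2 fold change limit of 1 (4416 of all genes) and to 4 with counts summed per nest and group (5857 of all genes). Without single mice it ranged from 4 to 8, with 4 without mouse P200_8.1_CTR_PBS or P200_18.2_CTR_PBS. With age in ELS it was 6, and ranged from 5 to 6 without single mice. It was 4 with the log2 fold change limit, 4 with only the groups compared, 5 with DESeq2, summed counts or the 25-mouse filter, and 7 without the libraries with under 16000 genes. All genes called with age in ELS went from 7045 to 4368, 5826, 7408, 5620, 5480 and 8046 in the same order. The ELS comparisons and both interactions stayed at 0 members under every alternative run. No called member changed direction. In fits of the groups compared alone, Trib3 in CTR and Sesn2 in ELS were called after LPS, and Ddit3 and Chac1 in CTR and Trib3 and Ppp1r15a in ELS lost their calls with age. With age, DESeq2 did not call Trib3 in ELS, the likelihood-ratio test did not call Chac1 in CTR, the unfiltered fit did not call Ddit3 in CTR, and summed counts did not call Atf4, Ddit3 and Asns in CTR or Trib3 in ELS. Requiring 1 CPM in at least 25 mice left 8 members tested, without Trib3 and Chac1. The number of all genes called between ELS-PBS and CTR-PBS was 28, and was 6 with DESeq2 size factors, 2 with no filter, 178 with DESeq2, 215 with the likelihood-ratio test, 7 with summed counts and 0 with only the groups compared.

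The nest number, read from the mouse label, was tried as a replicate block for LPS. Deviations of mice that share a number correlated between -0.0411 and 0.0841. Such correlations cannot show whether those mice were littermates, and the block was used as an alternative only. With the block, 7 members were called in CTR, 6 in ELS and 0 in the interaction, and Trib3 in CTR was called (log2 fold change 5.102, adjusted p = 0.012, edgeR). Trib3 and Chac1 had 0 reads in most PBS mice, so their levels in the PBS groups are limited by depth. Both had reads in all LPS mice.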
